A study of Caenorhabditis elegans with 60 samples.

Results

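The 52 genes described here are secreted immune effectors of Caenorhabditis elegans measured in worms kept with HFPO-DA (hexafluoropropylene oxide dimer acid), a perfluorinated ether carboxylic acid of fluoropolymer production. Membership was set by gene name and not by measured values, although the families were picked with earlier results of these data known. The identifiers of the table were matched to gene symbols of the assembly WBcel235, and every symbol of the families fip, fipr, cnc, lys, ilys, spp, irg, thn or abf followed by a number was taken. The annotation holds 115 such genes, the table lists 52 of them among 10298 genes, and all 52 passed the filter on low values. By family these were 3 fip, 13 fipr, 5 cnc, 5 lys, 2 ilys, 16 spp, 4 irg, 2 thn and 2 abf genes. The other 63 genes of these names are not analysed here.

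Wild-type N2 (Bristol) worms were exposed for 48 h from the synchronised first larval stage, in liquid culture with Escherichia coli HB101 as food. The control and 14 concentrations of HFPO-DA were sampled, namely 12.5, 62.5 and 313 µg/L and then 1.56, 7.81, 15.6, 31.3, 62.5, 125, 250, 500, 1000, 2000 and 4000 mg/L (the highest is written 4 g/L below). Each of the 15 groups had 4 wells of about 1000 whole worms, so that 60 libraries of poly(A) RNA were sequenced at shallow depth. No pathogen was added in any group, all groups received the same food bacteria, and no tissue was separated. In whole worms, fewer cells of a type and less RNA per cell cannot be told apart.

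Nematodes have no antibodies and no circulating phagocytes, and their defence rests on peptides and enzymes that epithelia secrete. The intestine releases lysozymes (lys, and ilys, which is known from the pharynx as well), which cut the peptidoglycan of bacterial walls, and saposin-like proteins (spp, also called caenopores), some of which open pores in bacterial membranes. The epidermis releases small glycine-rich peptides when a fungus attaches or the cuticle is wounded: the caenacins (cnc), the neuropeptide-like antimicrobial peptides (nlp) and the fungus-induced proteins and their relatives (fip, fipr). The irg genes are named for their response to pathogenic bacteria, the abf genes encode defensin-like antibacterial factors, and the thn genes encode thaumatin-like proteins. A tissue is assigned below by family, as background, and was not measured.

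At 4 g/L, the highest concentration, the fipr genes were the effectors that differed most from the control, with log2 fold changes of 2.52 to 3.88 in 5 of them, whereas the lysozymes and saposins moved both ways. In all, 17 of the 52 effectors were higher and 9 were lower than in the control at a limma adjusted p below 0.05. Over all 10293 genes tested, 14.7% were called higher and 13.7% lower at this concentration, so the share of effectors called lower lies near that of all genes. The median log2 fold change was 0.14 over the effectors and -0.05 over all genes tested. The 4 wells at 4 g/L lay entirely above the 4 control wells for 15 effectors and entirely below them for 7, against 8.11% and 9.68% of all genes tested. For 7 effectors, namely fipr-3, fipr-4, fipr-9, fipr-10, fipr-29, spp-18 and irg-3, all 4 wells at 4 g/L lay above all other 56 wells of the study, which was so for 1.71% of all genes. No effector had all 4 wells below the other 56, a pattern of 0.554% of all genes.

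**Figure D1:**
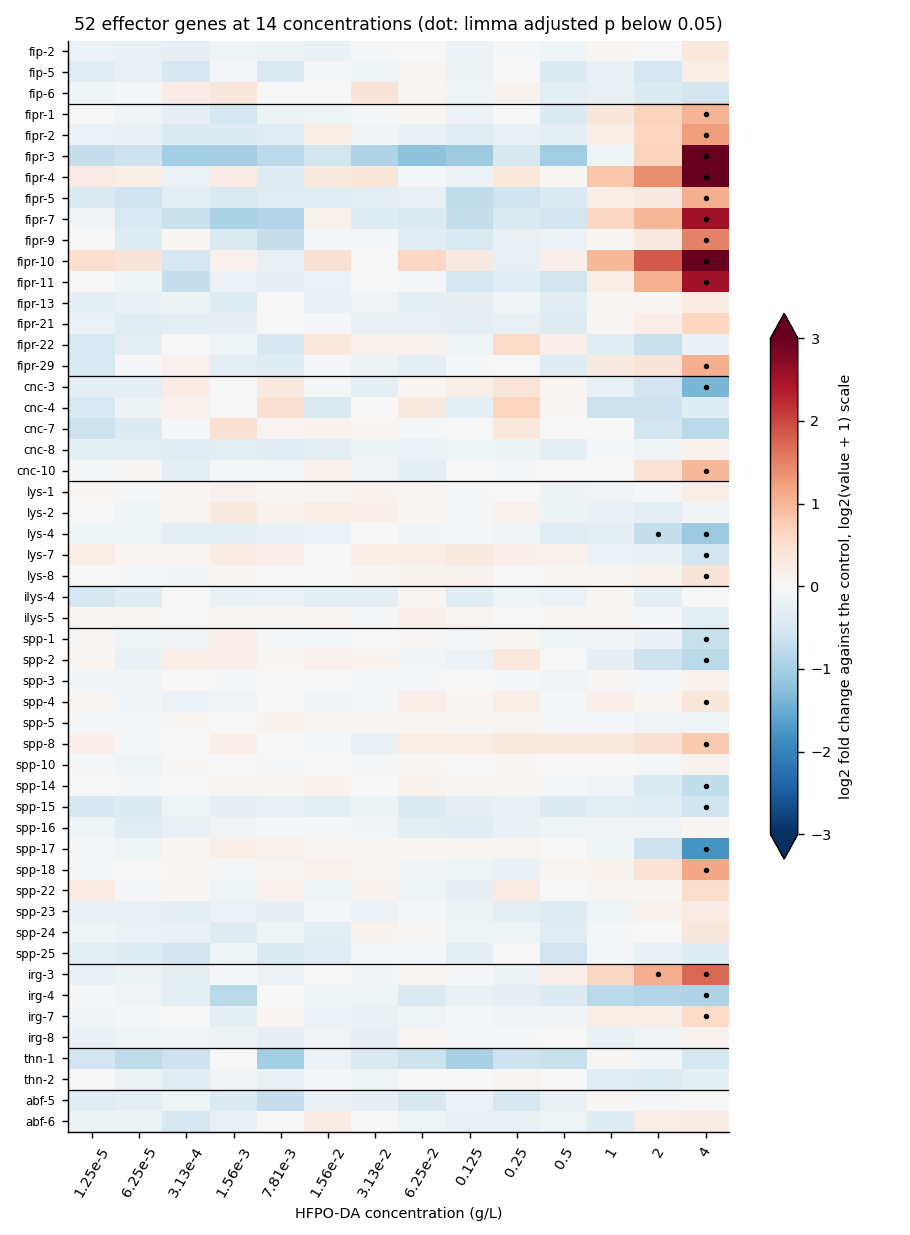
Log2 fold change against the control (colour, log2(value + 1) scale) of the 52 effectors (rows, by family) at the 14 concentrations (columns, low to high). Dots mark an adjusted p below 0.05 and stand almost entirely in the 4 g/L column, with irg-3 and lys-4 marked at 2 g/L too.

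All levels below are the deposited normalised values, on a linear scale. Their reads could be recovered, and libraries held 462117 to 4522107 reads, with a median of 890603 at 4 g/L and of 1472382 in the control. The residual spread of a library is the SD over genes of the deviations from the group mean. Replicates 4 and 3 at 4 g/L and replicate 1 of the control were among the widest, at 1.48, 1.39 and 1.37 times the median. So were replicate 4 at 31.3 mg/L (1.48) and replicate 2 at 1.56 mg/L (1.40), out of the 60 libraries. The sample numbers were also divided into 5 consecutive runs of 12, and several effectors moved with the run. This size was set for the comparison and is not given by the labels, which order the samples by replicate number. Among the 13 fipr genes, 8 had their highest median over the wells up to 0.25 g/L in samples 13 to 24, the run that holds control replicate 1. That control well was the highest of the 4 controls for 12 of the 13 fipr genes, and the lowest of the 4 for 10 of the 16 spp genes and 4 of the 5 lys genes. Replicate 4 at 4 g/L was the highest of its 4 wells for 9 of the 13 fipr genes. What the runs stand for is not known, and their part in the results was not tested beyond the values given below. Without 4 g/L replicate 4 and control replicate 1, 15 effectors were higher and 10 lower at 4 g/L. Without 4 g/L replicate 3 as well 14 were higher and 9 lower. Of all 10293 genes, 1071 were higher and 919 lower in the first of these fits, and 1061 and 907 in the second. Without 4 g/L replicate 4 alone, 12 effectors were higher and 6 lower. That fit called 644 of all genes higher and 659 lower, against 1518 and 1414 with every library. With the runs as a term in the fit all 26 calls of 4 g/L were kept. Here and below, the fit with that term used recovered reads over a size factor per library in place of the deposited values.

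The fipr family encodes short secreted peptides related to the fungus-induced proteins, and 10 of its 13 measured genes were higher at 4 g/L. None was lower, also at an unadjusted p below 0.05 and by voom, limma's weighting for the recovered reads. The median log2 fold change of the family was 1.26. The largest belonged to fipr-4 (CELE_C12D8.14, chromosome V, 10228043 to 10228460). Its values were 85.5, 147, 71.1 and 327 at 4 g/L, against 30.9, 2.36, 12.9 and 3.37 in the control. Every well at 4 g/L was above every other well of the study, where the highest was 48.9, and replicate 4 stood far above the other three. The log2 fold change was 3.88 ± 0.58 (SE, limma adjusted p = 1.56e-06, n = 4 wells each). It was 4.90 by voom, 3.28 with 5 in place of 1 added to each value, and 4.49 without control replicate 1.

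Its neighbour fipr-7 (V, 10229829 to 10230163) had 106, 91.3, 67.1 and 238 at 4 g/L, against 64.1, 8.66, 16.2 and 11.6 in the control. The groups did not overlap, although control replicate 1 came close to the lowest treated well. The log2 fold change was 2.55 ± 0.59 (adjusted p = 0.00137), or 3.14 without control replicate 1. The fipr-10 gene (CELE_C50H2.12, V, 9914182 to 9914529) had 96.8, 84.2, 77.6 and 192 at 4 g/L, against 44.3, 2.04, 11.7 and 4.21 in the control. Here too control replicate 1 was the highest control, and the log2 fold change was 3.44 ± 0.65 (adjusted p = 0.000108), or 4.18 without that control and 4.68 by voom. The fipr-11 gene (V, 9905853 to 9906215), on the same chromosome stretch, had 80.3, 85.6, 62.5 and 116 at 4 g/L, against 40.9, 5.12, 17.3 and 9.13 in the control, a log2 fold change of 2.52 ± 0.47 (adjusted p = 8.78e-05).

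The fipr-3 gene lies apart from these on chromosome X (14423405 to 14423883). Its values were 52.6, 121, 42.7 and 211 at 4 g/L, against 20.8, 5.11, 7.85 and 9.51 in the control, a log2 fold change of 3.06 ± 0.45 (adjusted p = 1.48e-06). All 4 treated wells were above the 56 others, the highest of which was 39.3. The fipr-9 gene varied less between wells, with 72.2, 81.8, 61.5 and 83.9 at 4 g/L, against 38, 19.3, 28.9 and 20.9 in the control, a log2 fold change of 1.49 ± 0.25 (adjusted p = 2.06e-05). The fipr-2 gene, expressed at a higher level, had 317, 298, 304 and 425 at 4 g/L, against 210, 110, 166 and 96.5 in the control (log2 fold change 1.26 ± 0.30, adjusted p = 0.00178). The remaining risers fipr-29, fipr-5 and fipr-1 had log2 fold changes of 1.1, 1.09 and 1.02. Leaving out 1 library ended each of these calls in turn: that of fipr-29 without control replicate 4 (adjusted p = 0.0742), that of fipr-5 without 4 g/L replicate 4 (0.0638) or control replicate 4 (0.0998), and that of fipr-1 without 4 g/L replicate 4 (0.0507) or control replicates 2 (0.0826) or 4 (0.0851).

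**Figure D2:**
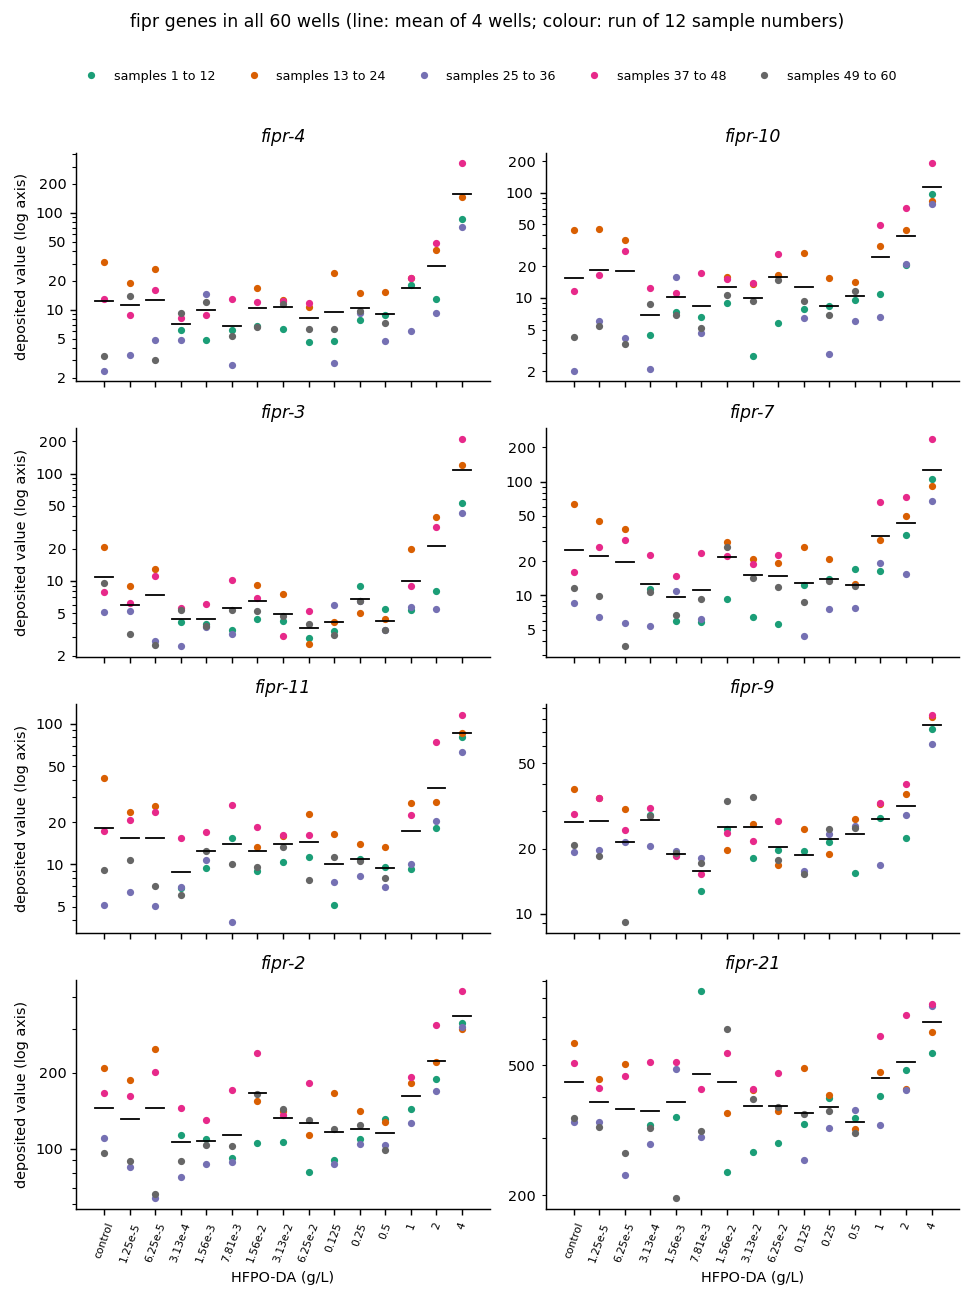
Deposited values (log axis) of 8 fipr genes in the 60 wells, by concentration from the control to 4 g/L, with the mean of each 4 wells as a line and the run of 12 sample numbers as colour. The wells at 4 g/L are the highest of all for fipr-3, fipr-4, fipr-9 and fipr-10, and wells of samples 13 to 24 lie high in the control and at the lowest concentrations.

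The member of the family with the highest mean value, fipr-21 on chromosome X, did not pass the threshold. It had 546, 631, 756 and 770 at 4 g/L, against 584, 334, 508 and 344 in the control (log2 fold change 0.64 ± 0.27, adjusted p = 0.0728), and the groups overlapped through control replicate 1. Without that control its log2 fold change was 0.79 (adjusted p = 0.0352), and it was called too with the 2 groups fitted alone (0.0434) and with the runs as a term (0.0296). The log2 fold changes of fipr-13 and fipr-22 were 0.22 and -0.20, also without a call.

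Each of the strongly raised fipr genes differed between the 4 g/L and control wells of the same run in the same direction. Samples 13 to 24, 25 to 36 and 37 to 48 each hold 1 well of both groups. On the log2 scale of reads over the size factor plus 1, the difference of fipr-4 was 2.92, 5.42 and 4.17 in these runs, that of fipr-3 was 2.88, 3.32 and 4.87, and that of fipr-9 was 1.14, 1.75 and 1.62. Across all effectors called higher, 16 of 17 were higher in all 3 runs, lys-8 being the exception, and of those called lower, 6 of 9 were lower in all 3. The exceptions among those called lower were cnc-3, lys-7 and spp-2, each of them higher at 4 g/L in samples 13 to 24 and lower in the other runs.

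**Figure D3:**
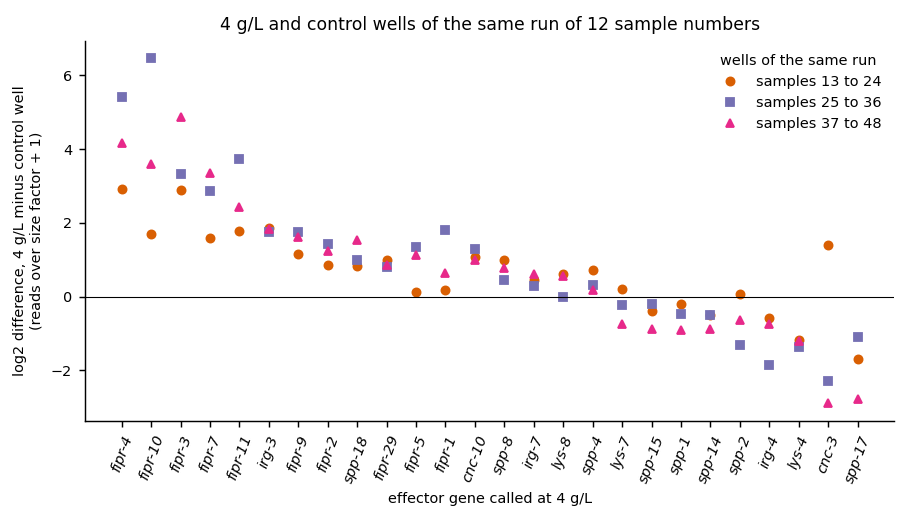
Log2 difference between the 4 g/L and the control well of the same run of 12 sample numbers (reads over size factor plus 1) for the 26 effectors called at 4 g/L, in order of their fold change. All fipr points lie above 0, and the widest separation between runs is that of fipr-10 and cnc-3. The control well of fipr-10 in samples 25 to 36 held 0 reads, so that its difference there depends on the 1 added to each value.

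Several of the raised fipr genes are neighbours. Within 9183 bases of chromosome V (10220981 to 10230163) lie fipr-5, fipr-9, fipr-4 and fipr-7, all 4 called higher, with log2 fold changes of 1.09 to 3.88. The pair fipr-11 and fipr-10 lies within 8677 bases (V, 9905853 to 9914529) and the pair fipr-1 and fipr-2 within 4569 bases (V, 12361301 to 12365869). Both genes of each pair were called higher. These are genes of similar name and may share reads; how reads that fit more than 1 copy were counted is not given in the sources used here, so the split between neighbours is uncertain. Genes next to each other did not always move together: among spp-3, spp-2, spp-4 and spp-5, all within 5386 bases of chromosome X, spp-4 was higher, spp-2 was lower and spp-3 and spp-5 were not called. The pair spp-17 and spp-23, within 2753 bases of chromosome I, had log2 fold changes of -1.78 and 0.24.

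Overlap with genes on the other strand could bear on a few of these values, since the sources used here do not say whether counting used strand. This was not tested. Of the 52 effectors, 16 overlap another annotated gene and 4 overlap 1 that was itself tested. The fipr-10 gene overlaps mec-9 on the opposite strand, and mec-9 was also called higher, with a log2 fold change of 1.07 (adjusted p = 0.0116). The gene overlapping fipr-3 was called lower, at -0.70. The gene overlapping spp-1 was called lower too, at -0.54 (adjusted p = 0.0447).

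The fungus-induced proteins themselves (fip) did not pass the threshold at 4 g/L in limma or in voom, and 1 of the 3 had an unadjusted p below 0.05. That was fip-2, the most abundant, with 236, 243, 273 and 283 at 4 g/L, against 204, 209, 230 and 191 in the control. All 4 treated wells were above all 4 controls, but the difference was small (log2 fold change 0.31 ± 0.13, adjusted p = 0.0612). It was called with median ratio rescaling (adjusted p = 0.0431) and with the runs as a term (0.0228). The log2 fold changes of fip-5 and fip-6 were 0.17 and -0.54, and fip-6 was called lower without control replicate 1 (-0.95, adjusted p = 0.0232).

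Of the 5 caenacins, 1 was higher and 1 lower. The cnc-10 gene (V, 11183224 to 11183643) had 67, 111, 98.3 and 104 at 4 g/L, against 54.8, 41.8, 55.5 and 37.7 in the control, without overlap (log2 fold change 0.98 ± 0.19, adjusted p = 0.000172). The cnc-3 gene (V, 1448004 to 1448792) had 5.1, 21.6, 7.99 and 2.78 at 4 g/L, against 7.35, 39.9, 18.5 and 30.9 in the control. These groups overlapped, the log2 fold change was -1.38 ± 0.44 (adjusted p = 0.0154), and the call was lost by voom (adjusted p = 0.0801), with the 2 groups fitted alone (0.109) and without 4 g/L replicate 4 (0.127), control replicate 2 (0.0944) or control replicate 4 (0.0645). The most abundant caenacin, cnc-8, had 225, 316, 377 and 430 at 4 g/L, against 316, 267, 377 and 267 in the control, and was not called. The log2 fold changes of cnc-4 and cnc-7 were -0.36 and -0.81, without a call, although cnc-7 was called lower with the runs as a term (-1.06, adjusted p = 0.032).

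The lysozyme genes divided. The largest change was a fall of lys-4 (CELE_F58B3.1, IV, 11621429 to 11623174), a protist-type lysozyme gene, to 80.4, 71.1, 66.3 and 92.1 at 4 g/L, against 169, 163, 197 and 138 in the control. The groups did not overlap, and the log2 fold change was -1.1 ± 0.17 (adjusted p = 2.2e-06). At 2 g/L lys-4 was lower as well, with 96.1, 90.8, 85.6 and 138 (log2 fold change -0.71 ± 0.17, adjusted p = 0.0196). The lys-7 gene, a target of the insulin-regulated factor DAF-16, had 132, 165, 252 and 135 at 4 g/L, against 130, 331, 290 and 288 in the control. Control replicate 1 was the lowest of these 8 wells, and the log2 fold change was -0.56 ± 0.21 (adjusted p = 0.041). The call was lost by voom (adjusted p = 0.143), on reads over the size factor (0.109), with the 2 groups fitted alone (0.172), with median ratio rescaling (0.0528), with no trend in the variance (0.0527) and without 4 g/L replicates 1, 2 or 4 or control replicates 2, 3 or 4, each in turn (0.0687 to 0.185). The lys-8 gene went the other way, with 625, 463, 380 and 588 at 4 g/L, against 313, 397, 428 and 423 in the control (0.38 ± 0.12, adjusted p = 0.0186). Its groups overlapped. The call was lost with the 2 groups fitted alone (adjusted p = 0.126), without 4 g/L replicates 1 (0.104) or 4 (0.109), without control replicate 1 (0.0943), and without 4 g/L replicate 4 and control replicate 1 together, where the log2 fold change was 0.20 (0.298). The most abundant lysozyme of this family, lys-1, had 945, 949, 770 and 854 at 4 g/L, against 655, 811, 878 and 783 in the control (0.17 ± 0.11, adjusted p = 0.239), and lys-2 beside it was not called either.

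Among the 16 saposin-like genes 5 were lower and 3 higher, and the 5 included abundant ones. The largest fall was that of spp-17 (CELE_C54G6.5, I, 1016405 to 1017176). It had 595, 340, 848 and 247 at 4 g/L, against 977, 1960, 2030 and 1510 in the control. Control replicate 1 was the lowest control and still above the highest treated well, and the log2 fold change was -1.78 ± 0.21 (adjusted p = 7.73e-09). With control replicate 1 left out, spp-17 was also called at 2 g/L, at -0.85 (adjusted p = 0.0465).

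The spp-14 gene (X, 7725979 to 7726383) had 771, 807, 963 and 717 at 4 g/L, against 1110, 1450, 1530 and 1310 in the control (-0.73 ± 0.11, adjusted p = 1.62e-06). The spp-1 gene, which encodes a pore-forming caenopore of the intestine, had 225, 260, 305 and 232 at 4 g/L, against 324, 433, 460 and 409 in the control (-0.67 ± 0.12, adjusted p = 3.15e-05). Neither pair of groups overlapped. The spp-15 gene was lower without overlap, at 61.7, 91.1, 90.6 and 52.7, against 106, 111, 112 and 107 in the control (-0.59 ± 0.16, adjusted p = 0.00427, or 0.0571 without 4 g/L replicate 4), and spp-2 was lower with overlap, at 90.5, 183, 88 and 119, against 148, 241, 234 and 193 in the control (-0.80 ± 0.22, adjusted p = 0.00624).

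The largest rise in the family was that of spp-18 (IV, 9593712 to 9594413), with 102, 114, 94.7 and 94 at 4 g/L, against 56.8, 51, 38.5 and 35.6 in the control. All 4 treated wells exceeded the other 56, whose highest value was 76.7, and the log2 fold change was 1.16 ± 0.22 (adjusted p = 0.00012). The other calls upward were spp-8 (0.79) and spp-4 (0.33, adjusted p = 0.0443). The call of spp-4 was lost by voom (adjusted p = 0.0863), on reads over the size factor (0.079), with the 2 groups fitted alone (0.128), with no trend in the variance (0.0512) and without 4 g/L replicates 2, 3 or 4 or control replicates 1 or 4, each in turn (0.0691 to 0.2). The most abundant saposin gene was spp-5, another caenopore gene of the intestine. It had 2330, 2340, 2600 and 2150 at 4 g/L, against 1990, 2910, 2960 and 2610 in the control, and was not called (-0.14 ± 0.10, adjusted p = 0.3). Without control replicate 1 it was called lower, at -0.26 (adjusted p = 0.0366), and spp-22 was called higher, at 0.76 (adjusted p = 0.0415). The prosaposin relative spp-10 had a log2 fold change of 0.10.

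**Figure D4:**
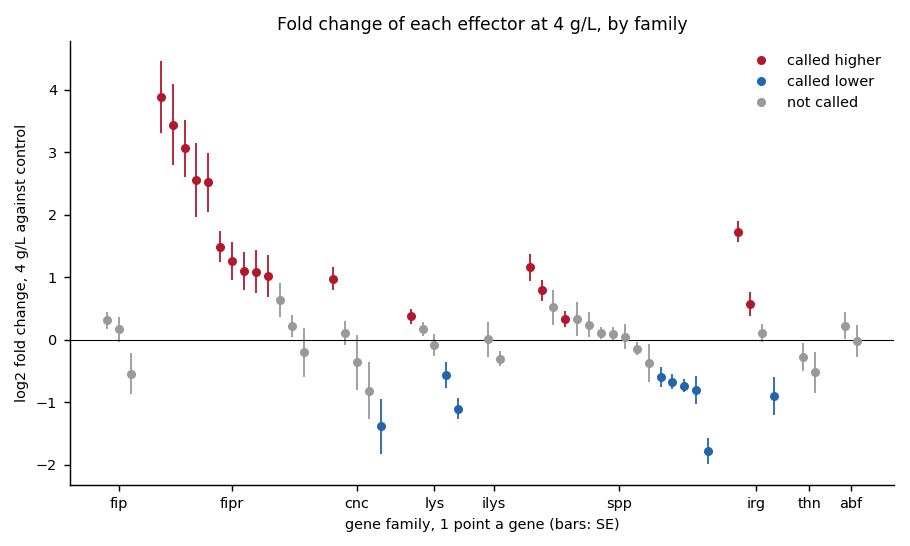
Log2 fold change at 4 g/L against the control for each of the 52 effectors (points, with SE bars), by family and in falling order within a family. Called higher are 10 of 13 fipr genes, and the spp, lys, cnc and irg families hold calls in both directions.

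Among the irg genes, irg-3 (CELE_F53E10.4, V, 2592591 to 2595062) had the smallest adjusted p of all effectors. It had 328, 285, 260 and 241 at 4 g/L, against 84.7, 82.1, 76.6 and 86.4 in the control. The controls lay close together, and the highest of the 56 other wells, at 2 g/L, was 205. The log2 fold change was 1.73 ± 0.17 (adjusted p = 9.7e-12), and within the 3 runs that held both groups the difference on the log2 scale was 1.85, 1.76 and 1.84. The most abundant, irg-7, had 330, 312, 280 and 420 at 4 g/L, against 246, 222, 256 and 176 in the control (0.57 ± 0.19, adjusted p = 0.0193), a call lost without 4 g/L replicate 4 (adjusted p = 0.114) or control replicate 4 (0.095). The irg-4 gene, a target of the p38 MAP kinase pathway, was lower, with 19.3, 18.6, 7.3 and 21.2 at 4 g/L, against 31.8, 23, 31.6 and 33.9 in the control (-0.90 ± 0.30, adjusted p = 0.0188). Its mean was 16.4 ± 5.27 (SD, n = 4) at 2 g/L already, but that difference was not called (log2 fold change -0.88 ± 0.30, adjusted p = 0.339). The call at 4 g/L was lost by voom (adjusted p = 0.0681), with the 2 groups fitted alone (0.0764), without 4 g/L replicate 3 (0.136) and without control replicate 4 (0.0548).

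The invertebrate-type lysozymes, the thaumatin-like genes and the antibacterial factors gave no call at 4 g/L in limma or voom, with 1 of their 6 measured genes at an unadjusted p below 0.05. That gene was ilys-5, the effector with the highest mean value of the 52, with 3060, 2900, 3450 and 3050 at 4 g/L, against 3220, 4230, 4260 and 3650 in the control (-0.30 ± 0.12, adjusted p = 0.0567). It was called lower without control replicate 1 (log2 fold change -0.38, adjusted p = 0.0193), without 4 g/L replicate 3 (-0.35, 0.036), with quantile normalisation (-0.20, 0.0212) and with the runs as a term (-0.31, 0.0143). The thn-2 gene had 64.8, 157, 58.3 and 140 at 4 g/L, against 87.4, 133, 108 and 142 in the control, and the treated wells spread widely on both sides. The abf-6 gene had 40, 31.8, 45.1 and 24.5 at 4 g/L, against 33.2, 21.3, 32.9 and 31.3 in the control.

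**Figure D5:**
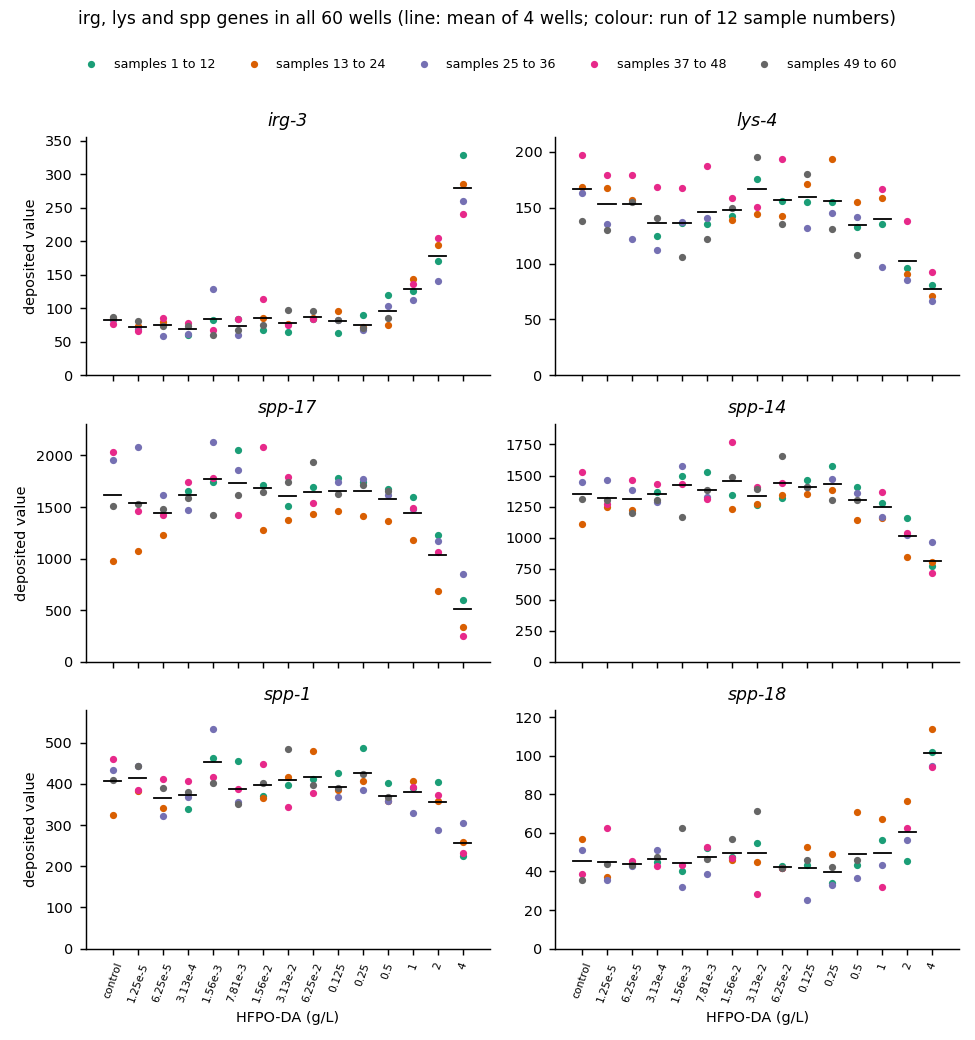
Deposited values (linear axis from 0) of irg-3, lys-4 and 4 spp genes in the 60 wells, by concentration from the control to 4 g/L, with the mean of each 4 wells as a line and the run of 12 sample numbers as colour. The level of irg-3 is above the control range at 1, 2 and 4 g/L, and spp-17, spp-14 and spp-1 are lowest at 4 g/L.

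Set side by side, the families known from the epidermis (fip, fipr, cnc) had 11 of 21 genes higher and 1 lower at 4 g/L, with a median log2 fold change of 0.98. Those known mostly from the intestine (lys, spp, irg, thn) had 6 of 27 higher and 8 lower, with a median of 0.05. Over all genes tested, 14.7% were higher and 13.7% lower at 4 g/L, with a median of -0.05. The shares of both groups of families called higher, and that of the intestinal families called lower, were above these. The ilys and abf genes, known also from the pharynx, were kept apart from both, with medians of -0.14 and 0.10. In a stricter list of genes with known intestinal expression, 7 of the 11 listed were measured, with 1 higher, 3 lower and a median of -0.14. The 10 fipr genes make up nearly all of the calls upward in the first group, and the fip and cnc genes had medians of 0.17 and -0.36. The difference of the epidermal and intestinal medians was 0.93, and between 0.74 and 1.07 when 1 library was left out at a time. At 2 g/L the same families had medians of 0.26 and -0.10, with no gene called in the first group (7 of 21 at an unadjusted p below 0.05, none by voom) and irg-3 and lys-4 called in the second.

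Expressed per kilobase of exon, levels in the control ranged from 10.5 for fipr-22 to 7080 for spp-5. This scale assumes reads along the whole transcript, which was not tested. Without division by length, ilys-5 had a higher mean value than spp-5 (3880 and 2600 over all wells). The next highest in the control were spp-17 (4440), spp-14 (3790) and ilys-5 (2990). At 4 g/L the order at the top was spp-5 (6360), spp-3 (2470), ilys-5 (2430), spp-14 (2290) and fipr-21 (1990), with spp-17 at 1390 per kilobase. The strongly raised fipr genes stayed below these: fipr-4 and fipr-7 reached 436 per kilobase at 4 g/L, against 34.2 and 87.3 in the control. Both had few control reads, 36 and 73 over the 4 wells, which limits the precision of their fold changes. The part of read depth in their spread between wells was not tested.

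Below 4 g/L few effectors could be told from the control. At 2 g/L, where 0.311% of all genes were called higher and 0.175% lower, irg-3 was higher and lys-4 lower. The irg-3 values were 170, 194, 140 and 205 at 2 g/L, all above the controls, a log2 fold change of 1.08 ± 0.17 (adjusted p = 1.55e-05). The call of irg-3 was kept under every setting tried at 2 g/L, and that of lys-4 was lost with quantile normalisation, with the 2 groups fitted alone and without 2 g/L replicates 1, 2 or 3 or control replicates 2 or 3, each in turn. At 1 g/L (0.165% of all genes called) no effector was called by limma or voom, and 2 of 52 had an unadjusted p below 0.05. The irg-3 values there were 125, 143, 112 and 136, all above the controls, at an adjusted p of 0.198.

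At 0.5 and 0.25 g/L 0.0194% and 0.00972% of all genes were called, at the 9 lower concentrations 0%, and no effector at any of the 11. The number of effectors with an unadjusted p below 0.05 was 0 to 4 of 52 at these concentrations. The voom results of these concentrations were not kept. The fipr genes had mean values above the control at 2 g/L for most members, with log2 fold changes of 1.85 ± 0.65 for fipr-10 and 1.39 ± 0.58 for fipr-4 that were not called (adjusted p = 0.353 and 0.542). With the runs as a term in the fit, fipr-10 (2.58, adjusted p = 0.00188), fipr-4 (2.02, 0.0268) and fipr-11 (1.27, 0.04) were called at 2 g/L, beside spp-17 (-0.59, 0.0486), irg-3 and lys-4. These 6 calls were made on reads over the size factor. Without the term, those reads and the deposited values each gave the 2 calls of irg-3 and lys-4.

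The fold change of the step between the 2 highest concentrations does not use the control wells. Its SE and adjusted p do, since they come from the fit of all 60 samples. At 4 g/L against 2 g/L 8 effectors were higher and 2 lower, against 4.59% and 4.06% of all genes. Higher were fip-5, fipr-3, fipr-4, fipr-9, fipr-11, cnc-10, spp-18 and irg-3. Lower were spp-17 and spp-1. Fewer were called in each direction with these 2 groups fitted alone. The fipr-3 values were 52.6, 121, 42.7 and 211 at 4 g/L, against 8.09, 39.3, 5.46 and 31.5 at 2 g/L, a log2 difference of 2.40 ± 0.45 (adjusted p = 0.000446). That of fipr-4 was 2.49 ± 0.58 (adjusted p = 0.004) and that of spp-17 was -1.15 ± 0.21 (adjusted p = 0.000321). The higher count fell to 3 without 4 g/L replicate 4 or without 2 g/L replicate 3, to 4 without 4 g/L replicate 2, and to 5 without 2 g/L replicates 1 or 2, and the lower count to 1 without 4 g/L replicate 4. At 2 g/L against 1 g/L, where 0.146% of all genes were called, no effector was called by limma or voom, and 3 of 52 had an unadjusted p below 0.05 in each direction.

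A slope over the rank of the concentration, from 0 for the control to 14 for 4 g/L, passed an adjusted p below 0.05 with a positive sign for 16 effectors and with a negative sign for 6, against 3.8% and 2.77% of all genes. With the 4 g/L wells left out 1 effector passed, irg-3, with a slope of 0.061 ± 0.011 per rank (SE, adjusted p = 0.000179), against 0.262% of all genes that passed with a positive and 0.0486% with a negative slope.

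The spread between wells of a group was itself uneven among the families. The residual SD of log2(value + 1) had a median of 0.66 in the cnc genes and 0.50 in the fipr genes, against 0.26 in the spp genes, 0.24 in the lys genes and 0.32 over all genes tested. It was largest in fipr-10 (1.00), fipr-7 (0.91) and fipr-4 (0.88), which are also among the genes with few reads in the control. Other genes with few control reads had a narrower spread, among them thn-1 (35 reads, 0.48) and fipr-29 (21 reads, 0.42).

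Most known regulators of these effectors, where measured, were not called at 4 g/L. Of all genes tested, 14.7% were called higher and 13.7% lower. Some of the regulators had low values, with control means of 7.42 for pmk-2 and 7.59 for dbl-1. The genes pmk-1 (p38 cassette) and nipi-4, sta-2 and snf-12 (epidermal signalling) were not measured. Of the p38 cassette, which drives immune genes in intestine and epidermis, 6 of 7 genes were measured. None of them was called by limma or voom or had an unadjusted p below 0.05. Of the epidermal signalling genes that lead to nlp and cnc expression, 2 of 9 were higher, the phospholipase gene egl-8 (85.9 ± 8.69 at 4 g/L and 57.4 ± 6.84 in the control, SD, n = 4 each) and the GATA factor gene elt-3 (31.7 ± 9.86 at 4 g/L and 14.1 ± 3.59 in the control). In the DBL-1 TGF-beta pathway 1 of 7 was higher (sma-9, log2 fold change 0.61), in the insulin pathway 1 of 7 was lower (akt-1, -0.41), neither of them by voom, and among 7 measured intestinal immune regulators none was called by limma or voom and 1 had an unadjusted p below 0.05. The neuropeptide-like antimicrobial peptides of the epidermis had 5 of 8 measured genes higher, a median of 0.99 and summed levels of 1740 to 4540 at 4 g/L, against 1330 to 1650 in the control, with nlp-34 at 2.25 ± 0.39 (adjusted p = 3.17e-05), nlp-30 at 1.48, nlp-25 at 1.40, nlp-24 at 1.13 and nlp-29 at 0.84. The abundant nlp-24 had a mean of 1940 ± 928 at 4 g/L and 817 ± 96.2 in the control (SD, n = 4 each).

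Markers of the tissues in question moved at 4 g/L as well, and their part in the effectors' values was not tested. Of 9 measured intestine markers 6 were higher, among them the intermediate filament gene ifb-2 (log2 fold change 1.68) and the peptide transporter gene pept-1 (1.33), and their summed level was 2600 to 4190 at 4 g/L, against 1390 to 1880 in the control. The intestinal GATA factor gene elt-2 was measured and not called (0.38, adjusted p = 0.4). Of 7 measured epidermis markers 2 were higher, vab-10 and elt-3, the latter also counted above among the signalling genes. Another 2, lin-26 (-0.52) and vab-19 (-0.69), were lower at an unadjusted p below 0.05 but not called. In the same way 1 more, mup-4 (0.48), was higher at an unadjusted p below 0.05 but not called. The sums of the 7 were 385 to 724 at 4 g/L, against 317 to 430 in the control. The vab-10 gene alone had means of 236 at 4 g/L and 127 in the control. Of 5 measured pharynx markers 2 were higher, with sums of 483 to 753 at 4 g/L, against 336 to 495 in the control. Germline and yolk genes had 7 of 12 lower and 1 higher, with sums of 15800 to 28200 at 4 g/L, against 28500 to 46500 in the control, most of which came from the vitellogenin (vit) genes. The 1 higher was the sperm protein gene msp-74, at 12.8 ± 6.26 at 4 g/L and 4.12 ± 2.06 in the control (SD, n = 4 each), a log2 fold change of 1.41 (limma adjusted p = 0.00107). Moulting genes had 3 of 7 measured members higher. Voom called 0 of these pharynx and 0 of these moulting genes. Of the adult cuticle collagens col-7 (3.40) and col-62 (2.35) were higher whereas col-19 was not called (0.09). No marker of these lists was at 0 reads in both groups, and the furrow collagens are not analysed here.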

How the data were processed

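Whole-worm poly(A) RNA was sequenced in 60 libraries. Tools named, without roles, in the submitters' processing notes are STAR 2.7.10a, HTSeq 2.0.1, UMI-tools 1.1.2, edgeR 3.36.0 and Trimmomatic 0.39, with the build WBcel235. What the authors deposited is a linear normalised signal for each gene, not counts; how it was made is not given in the sources used here. Its values step in whole reads: each equals 1 plus a factor per gene and replicate number (0.445 to 3.18) times 1 plus the scaled reads, with reads of 0 held as 0.5, and 100% of 617880 values gave whole reads within 0.0001. The deposited signal is therefore already adjusted by replicate number. The main fit has no term for this adjustment, so its SEs and adjusted p-values can be too small. At the highest concentration it called 1518 of all genes higher and 1414 lower than in the control. With a replicate block these were 1444 and 1316. On reads over the size factor, which lack this adjustment, they were 881 and 1076. There 16 effectors were higher and 8 lower, against 17 and 9 in the main fit.

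Groups came from the labels. Identifiers were matched to symbols of WBcel235 (10294 of 10298), and exon lengths came from Ensembl release 115. Values were tested as log2(value + 1) for 10293 genes reaching 5 in at least 4 libraries, with limma 3.58.1 (intensity trend, 15 group means, R 4.3.3). Tests were two-sided, with Benjamini-Hochberg adjustment over all genes and a threshold of 0.05. This scale understates the fold changes of genes with few reads. All comparisons with the control share its 4 wells. Whether wells came from separate cultures is not stated, and p-values then reflect variation among these wells. Of 90 pairs of replicates none agreed within sampling noise (lowest dispersion 1.57 times that noise).

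Members and lists were chosen with earlier results of these data known. All members were counted by family. Named with values were those called below 4 g/L, the 8 largest rises and 8 largest falls at 4 g/L, the largest call in each direction of each family and the member of each family with the highest mean; other genes named were chosen after their values were seen. Alternatives were voom on recovered reads, other scalings, filters and pseudocounts, a replicate block and left-out libraries. Terms for runs of sample numbers were fitted to reads over the size factor. Promoter motifs were not searched. Python 3.11.15, numpy 2.4.6, pandas 2.3.3 and matplotlib 3.10.9 were used.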

Additional observations from a re-analysis of the deposited data

Results flagged for a closer look

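In the control and at 1, 2 and 4 g/L, 112 groups of 4 wells were looked at for the 28 named effectors, and in 7 of them 1 well lay far from the other 3, about as many as chance gives (1 in 20). At 4 g/L this was replicate 4 of fipr-10, at 192 against 77.6 to 96.8 in the other wells, and of fipr-2, at 425 against 298 to 317. In the control it was replicate 1 of fipr-7, at 64.1 against 8.66 to 16.2, and replicate 2 of abf-6, at 21.3 against 31.3 to 33.2. At 2 g/L irg-7 had 333 in replicate 4 against 228 to 233. At 1 g/L replicate 4 was far from the others in spp-2, at 120 against 184 to 192, and in cnc-8, at 374 against 254 to 274. In 5 of the 7 cases the well was replicate 4.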

How the results depend on the processing

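Of the 26 effectors called at 4 g/L, 16 kept their call and direction under all 22 alternatives run. The 17 higher and 9 lower effectors became 16 and 10 with the replicate block, which ended the call of spp-4 (adjusted p = 0.0523) and added that of ilys-5 (0.0437), and 12 to 17 and 6 to 12 with 1 library, or control replicate 1 with 4 g/L replicate 4 or replicates 3 and 4, left out. Over all genes, 644 to 1806 were higher and 659 to 1547 lower with these libraries left out. With only the 2 groups compared 5 effectors were lower, and 430 of all genes. For 4 g/L against 2 g/L, the 8 higher became 4 on reads over the size factor, 2 with only the 2 groups compared and 3 to 9 with 1 library left out, and the 2 lower became 4 with the runs of sample numbers as a term, 0 with only the 2 groups compared and 1 to 3 with 1 library left out. The 2 effectors called at 2 g/L became 1 with quantile normalisation or with only the 2 groups compared, 6 with the run term and 1 to 5 with 1 library left out. Positive slopes numbered 1 and negative slopes 0 without the 4 g/L wells, which holds fewer samples. Over all alternatives the difference of the epidermal and intestinal medians (0.93) was 0.73 to 1.12. The lowest had 5 added to each value and the highest used the stricter intestinal list. The replicate block cannot change this difference, since each group holds each replicate number once. No named effector that was called changed sign. The causes of these shifts were not tested. The labels do not say that same-numbered wells share a source. The deviations of such wells at 4 g/L and in the control correlated at -0.241 to -0.006. Of the wells at 4 g/L, 0 of 4 correlated best with the control of its own number. The deposited signal is already adjusted by replicate number, so correlations of its values cannot show whether these wells share a source. The slope without 4 g/L, reads over the size factor without the run term and the fits without 2 or 3 libraries together were chosen after seeing the data. Shallow depth (36 control reads for fipr-4) limits the precision of the low fipr and cnc genes, but its part in their spread was not tested.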
